A study of Homo sapiens with 12 samples.

Results

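The genes described here are the MHC class II genes HLA-DRA, HLA-DRB1, HLA-DRB5, HLA-DPA1, HLA-DPB1, HLA-DMA and HLA-DMB together with CIITA and CD74. They were picked by symbol, and all 9 were found among the 19824 entries of the deposited expression table. The table covers 2 human glioblastoma cell lines, U87 and U373, both labelled wild-type and grown in high-glucose DMEM with serum. Each line was treated for 72 h with BCT-100, a pegylated human arginase I that breaks down arginine in the medium, at 1 U/ml, or with PBS as vehicle. The 12 RNA-seq libraries form 4 groups of 3: U87 with BCT-100, U87 with PBS, U373 with BCT-100 and U373 with PBS. The labels do not say whether the 3 libraries of a group came from separate cultures, so every spread and p-value below measures the difference between these libraries and may be technical. Each cell line is 1 line, so a difference between U87 and U373 describes these lines and no wider class of tumour.

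MHC class II molecules are pairs of an alpha and a beta chain that carry peptides from the endosomal pathway to the cell surface, where CD4+ T cells read them. CIITA is the master coactivator of these genes. It does not bind DNA itself but docks on a complex of the RFX factors, CREB and NF-Y, which sits on paired X and Y elements in the promoters of the class II genes and of CD74. Professional antigen-presenting cells make CIITA constitutively, many other cells make it after interferon-gamma, and class II expression has been described in a share of gliomas. CD74, the invariant chain, plugs the peptide groove of new class II molecules until cathepsins trim it down to a small remnant called CLIP, which the HLA-DM heterodimer then exchanges for other peptides.

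Matches to the paired X and Y elements were found in part of the reference promoters of these genes. RefSeq promoter windows (GRCh38.p14, 250 bases before to 50 after the start) were held for 7 of the 9 genes, and not for HLA-DRA or CIITA. A search for the letters AGNNAC followed directly by NNNTG on the gene's strand, followed within 10 to 30 bases by ATTGG on either strand, found the pair in 4 of the 7, namely CD74, HLA-DRB1, HLA-DRB5 and HLA-DMA, and also in HLA-DQB1. The letters of both motifs were written down after these sequences had been read, so the matches are a description. The pair was held by 70 of 35116 promoters of the same length, or 0.199%, while 12.5% held the X letters and 34.6% the Y letters on either strand. The stretches are printed 5′ to 3′ on the strand of the gene, which is the minus strand in each case, with the X and then the Y match in capitals. In CD74 the Y element reads as its reverse complement. They are reference sequence and not that of U87 or U373.
CD74, chr5:150412953-150412997: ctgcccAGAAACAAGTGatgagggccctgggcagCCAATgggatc
HLA-DRB1, chr6:32589884-32589933: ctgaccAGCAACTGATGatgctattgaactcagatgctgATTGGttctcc
HLA-DRB5, chr6:32530367-32530416: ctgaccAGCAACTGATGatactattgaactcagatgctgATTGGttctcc
HLA-DMA, chr6:32953166-32953216: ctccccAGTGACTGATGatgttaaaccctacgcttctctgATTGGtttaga
HLA-DQB1, chr6:32666735-32666784: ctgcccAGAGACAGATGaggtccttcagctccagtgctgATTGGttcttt
The gap between the matches is 17 bases in CD74, 22 bases in HLA-DRB1, HLA-DRB5 and HLA-DQB1, and 23 bases in HLA-DMA. HLA-DPA1 and HLA-DPB1 held no X match of these letters in their windows, and HLA-DMB held X and Y matches that were not spaced in this way, which says only that these letters are not in these windows.

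On the GRCh38 annotation (GENCODE v29) the 7 HLA genes lie within 647.4 kb of chromosome 6, at chr6:32439842-33087201. HLA-DRA, on the plus strand, opens that span, followed by HLA-DRB5, HLA-DRB1, HLA-DMB, HLA-DMA, HLA-DPA1 and HLA-DPB1, the last of which is again on the plus strand. CIITA lies at chr16:10866222-10943021 on the plus strand and CD74 at chr5:150401637-150412929 on the minus strand.

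The values are the authors' scaled read counts, each library's RSEM expected counts divided by a single factor, so a value near 1 is close to 1 read. Undoing the factor gave libraries of 18886000 to 25924000 reads. The astrocytic markers differed between the lines. GFAP, the astrocyte intermediate filament, was between 0.902 and 2.17 in U87 with BCT-100 and between 3.19 and 3.91 in U87 with PBS, whereas it was between 8461 and 12048 in U373 with BCT-100 and between 51277 and 54054 in U373 with PBS. SOX2 and S100B were also at or near 0 in U87, and vimentin, CD44 and EGFR were abundant in both lines. NES was lower in U87, with means in PBS of 1445 in U87 and 10545 in U373. OLIG2 went the other way, with means in PBS of 20.6 in U87 and 0 in U373. In BCT-100 the OLIG2 means were 108 in U87 and 9.80 in U373. Of 16 markers of leukocytes, microglia and professional antigen-presenting cells, AIF1, TYROBP, MS4A1, CD3E and CD1C were at 0 in all 12 libraries. Others of the 16 were present in U87, among them CD68, ITGAX and CSF1R, with means in PBS of 6032, 294 and 273. In bulk RNA, fewer cells that express a gene and less RNA per cell cannot be told apart.

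Class II genes, CIITA and CD74 were an expressed set in U87 and nearly silent in U373, in both media. In PBS the summed scaled count of the 7 HLA genes was 8949 ± 132 in U87 and 21.96 ± 4.88 in U373 (SD, n = 3 each). In BCT-100 the sum was 5950 ± 118 in U87 and 19.1 ± 3.74 in U373 (SD, n = 3 each). The 12-library limma test placed all 9 genes higher in U87 than in U373, both in PBS, where 43.0% of the 13628 genes tested were higher, and in BCT-100, where 42.0% were. The genes were chosen with these values known, and they passed the filter on low values only through U87, so those counts describe the choice.

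**Figure D1:**
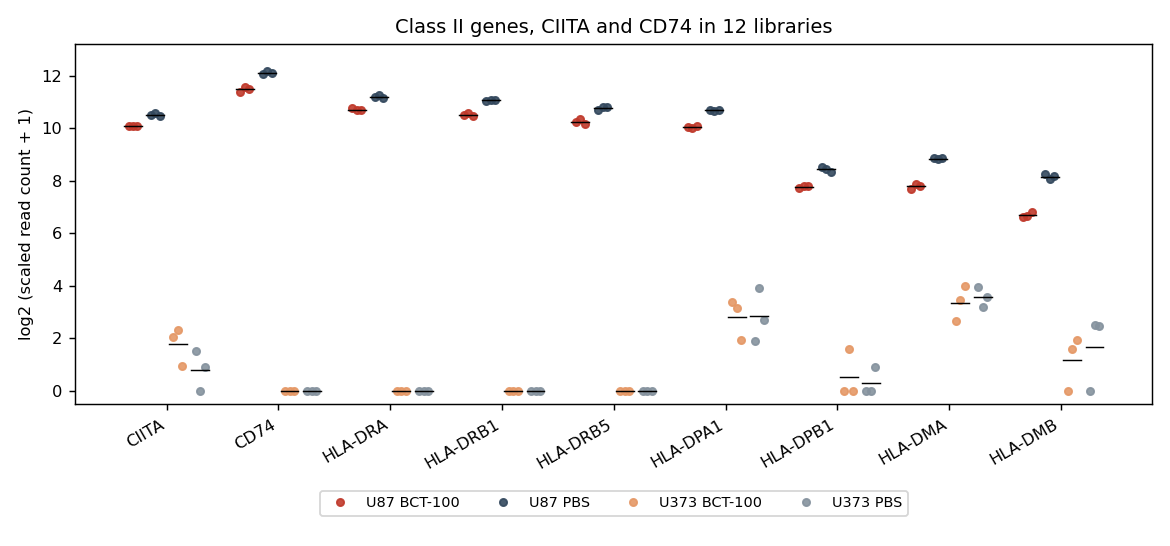
Scaled read counts (log2 of the value plus 1, vertical axis) of the 9 genes (horizontal axis) in every library; points are libraries, black lines are group means, and colours give line and treatment. In U87 the BCT-100 points lie below the PBS points for each gene, and in U373 CD74, HLA-DRA, HLA-DRB1 and HLA-DRB5 lie at 0 in all 6 libraries.

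U373 gave no read at all for CD74 and the DR chains. HLA-DRA (the DR alpha chain), HLA-DRB1 and HLA-DRB5 (DR beta chains) and CD74 were at 0 in the 3 BCT-100 and the 3 PBS libraries of that line. Against a floor of 3 reads over the 3 libraries of a group, CD74 was at least 2856-fold higher in U87 than in U373 in BCT-100 and at least 4386-fold higher in PBS. HLA-DRA was at least 1679-fold higher in U87 in BCT-100 and at least 2344-fold higher in PBS. For HLA-DRB1 the bounds were 1467-fold in BCT-100 and 2136-fold in PBS, and for HLA-DRB5 they were 1222-fold and 1737-fold. Intervals and floors here cover counting error only.

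The DM and DP genes and CIITA kept a trace of reads in U373. For CIITA and the DM genes part of that trace could come from other genes. Of the 50-base stretches of the CIITA transcript, 15.2% also occur in other genes. Sequence or spans that CIITA and the DM genes share with single genes are given below. HLA-DMA, the DM alpha chain, had 5, 10 and 16 reads in U373 with BCT-100, against 15.6, 7 and 12 reads in U373 with PBS. HLA-DPA1, the DP alpha chain, had 9, 8 and 3 reads in U373 with BCT-100, against 3, 12 and 6 in U373 with PBS. HLA-DMB, the DM beta chain, had 0, 2 and 3 reads with BCT-100 and 0, 4 and 5 with PBS. The treated and untreated U373 libraries overlapped for each of these 3 genes. HLA-DPB1, the DP beta chain, had 2 reads in all with BCT-100 and 1 with PBS, a ratio of 2.01 after scaling with a 95% counting interval of 0.105 to 119.

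CIITA had 3, 4 and 1 reads in U373 with BCT-100, against 2, 0 and 1 reads in U373 with PBS. The groups share the value of 1 read, and the ratio of the scaled sums was 2.68, with a 95% counting interval of 0.644 to 15.7. It was the only one of the 9 genes to be called in U373 by the 12-library test, in which 35.6% of all genes were higher, 35.8% lower and 71.4% called in either direction. With 8 reads against 3 and an interval that spans 1, no difference was detectable at this depth. Set against U87, CIITA in PBS was 1485-fold higher in U87 (95% counting interval 508 to 7204), and HLA-DPB1 was 1050-fold higher (188 to 41530). HLA-DPA1 was 221-fold, HLA-DMB 92.8-fold and HLA-DMA 41.1-fold higher in U87 in PBS, so the HLA-DM genes had the lowest ratios between the lines.

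In U87, BCT-100 libraries held less RNA of every one of the 9 genes than PBS libraries, with no overlap between the groups. Over all genes tested, 37.6% were lower in BCT-100 without overlap and 73.0% differed without overlap in either direction, so non-overlap by itself is common in this comparison. The median log2 difference of the 9 genes was -0.63, beside -0.01 over all genes tested. These 9 were chosen from results of the same libraries, so their differences are a description, and the numbers of them called in the fit over all genes describe the choice and are no test of it.

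CIITA, the coactivator, was at 1075, 1089 and 1085 in U87 with BCT-100, against 1447, 1516 and 1425 in U87 with PBS. The 3 treated libraries lay within a narrow band below the lowest PBS library, at 74.0% of the PBS mean. The log2 difference of CIITA was -0.43, with a standard error (SE) of 0.35 from the 12-library fit and 0.047 from a fit of the 6 U87 libraries alone.

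Both errors are stated because they differ widely for these genes. The 12-library fit pools the spread of all 4 groups. CIITA and the DP and DM genes scatter at low values in U373, which widens the pooled error although U87 libraries agree closely. CD74 and the DR chains were at 0 in U373, so no scatter there enters their error, which was also wider in this fit. The fit also draws each gene's error toward that of genes with a similar mean level over the 12 libraries. Values at or near 0 in U373 lower that mean for all 9 genes. With the pooled error 6 of the 9 genes were called lower in U87, where 35.7% of all genes were called lower and 69.3% in either direction, and with the 6 U87 libraries alone 9 of 9 were, where 39.1% were. The genes not called with the pooled error were CIITA, HLA-DPA1 and HLA-DPB1.

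CD74 was at 2649.8, 3016 and 2864 in U87 with BCT-100, against 4235, 4601 and 4323 in U87 with PBS. The treated mean was 64.8% of the PBS mean, and the highest treated library stayed below the lowest PBS library. Its log2 difference was -0.63 (SE 0.18 with 12 libraries, 0.042 with U87 alone).

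The DR chains were lower by similar amounts. HLA-DRA was at 1739, 1639.7 and 1635 in U87 with BCT-100, against 2332, 2466 and 2236 in U87 with PBS, a log2 difference of -0.49 (SE 0.20 with 12 libraries, 0.043 with U87 alone). HLA-DRB1 was at 1445, 1511 and 1424 in U87 with BCT-100, against 2089, 2161 and 2158 in U87 with PBS, a log2 difference of -0.55 (SE 0.20 and 0.041). HLA-DRB5 was at 1202, 1315 and 1133 in U87 with BCT-100, against 1637, 1785 and 1791 in U87 with PBS, a log2 difference of -0.52 (SE 0.22 and 0.053). The alpha chain and both beta chains stood at 68.4% to 71.3% of their PBS means. HLA-DRB1 and HLA-DRB5 are close copies: their annotated transcripts are 92.3% identical over 1190 aligned bases, and 8.64% of the 50-base stretches of the HLA-DRB1 transcript also occur in HLA-DRB5. Their values are not whole reads once the scaling is undone, so reads were shared out between them and the division into separate beta chains is uncertain.

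The DP chains followed. HLA-DPA1 was at 1061, 1039 and 1085 in U87 with BCT-100, against 1644, 1615 and 1669.6 in U87 with PBS. HLA-DPB1 was at 209, 222 and 221 in U87 with BCT-100, against 364, 350.2 and 320.1 in U87 with PBS. The treated libraries were below all PBS libraries for both chains, at 64.6% and 63.0% of the PBS mean. The log2 difference was -0.63 for HLA-DPA1 (SE 0.50 with 12 libraries, 0.046 with U87 alone) and -0.66 for HLA-DPB1 (SE 0.39 and 0.094). The 2 genes overlap on opposite strands in the annotation, and whether the counting used strand is not given in the sources used here.

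The HLA-DM chains, which form the peptide exchange catalyst and not a presenting molecule, had the lowest treated levels relative to PBS. HLA-DMA was at 205, 236 and 221 in U87 with BCT-100, against 466, 449 and 460.5 in U87 with PBS. HLA-DMB was at 98.4, 100.1 and 109.8 in U87 with BCT-100, against 303, 267 and 286 in U87 with PBS. All 3 treated libraries were near 48.1% of the PBS mean for HLA-DMA and near 36.0% for HLA-DMB, below each of the other 7 genes. The log2 differences were -1.05 for HLA-DMA (SE 0.27 with 12 libraries, 0.088 with U87 alone) and -1.46 for HLA-DMB (SE 0.60 and 0.118). Of the 50-base stretches of their transcripts, 11.6% of those of HLA-DMA and 29.01% of those of HLA-DMB also occur in an annotated transcript named AL645941.2, so part of their reads could be shared with it. The annotated spans of HLA-DMA and BRD2 also overlap, on opposite strands.

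**Figure D2:**
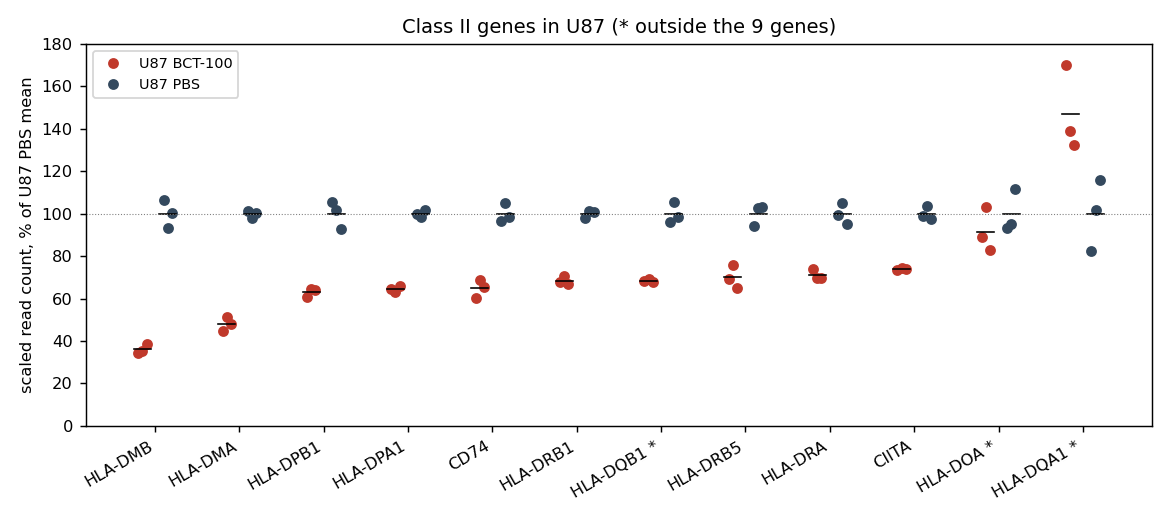
Scaled read count in each U87 library as a percentage of the U87 PBS mean (vertical axis, from 0) for the 9 genes and 3 further class II genes marked with an asterisk; red points are BCT-100 libraries, dark points PBS libraries and black lines group means. Genes are ordered by the treated mean, from HLA-DMB at 36.0% to HLA-DQA1 at 147%.

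Levels can be compared between genes only per length, here as scaled count per kilobase of the principal annotated transcript. In U87 with BCT-100 the order of levels per kilobase was CD74 at 2898 ± 188, HLA-DRA at 1306 ± 46.0, HLA-DRB1 at 1188 ± 37.2, HLA-DRB5 at 966 ± 73.1, HLA-DPA1 at 623 ± 13.4, HLA-DMA at 197 ± 13.9, HLA-DPB1 at 139 ± 4.51 and HLA-DMB at 73.6 ± 4.39 (SD, n = 3). In U87 with PBS it was CD74 at 4471 ± 195, HLA-DRA at 1832 ± 90.1, HLA-DRB1 at 1738 ± 33.4, HLA-DRB5 at 1379 ± 69.3, HLA-DPA1 at 964 ± 16.1, HLA-DMA at 408 ± 7.36, HLA-DPB1 at 221 ± 14.3 and HLA-DMB at 204 ± 13.1 (SD, n = 3). The order of these 8 genes was the same in both media. In PBS the libraries of HLA-DRA and HLA-DRB1 overlapped, as did those of HLA-DPB1 and HLA-DMB, whereas in BCT-100 no neighbours in the order overlapped. CIITA was left out because its 8 annotated coding transcripts run from 498 to 16059 bases.

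Ratios between genes were also taken within each library. HLA-DRA over the sum of HLA-DRB1 and HLA-DRB5, per kilobase, was 0.638, 0.564 and 0.621 in U87 with BCT-100, against 0.608, 0.607 and 0.550 in U87 with PBS. HLA-DPA1 over HLA-DPB1 per kilobase was 4.64, 4.28 and 4.501 with BCT-100, against 4.14, 4.22 and 4.78 with PBS. The groups overlapped for both alpha to beta ratios, and also for CD74 over HLA-DRA and for CIITA over HLA-DRA. Overlap between groups this small does not show that a ratio was unchanged.

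The HLA-DM ratios did not overlap. HLA-DMA plus HLA-DMB over HLA-DRA, per kilobase, was 0.186, 0.220 and 0.215 in U87 with BCT-100, against 0.347, 0.307 and 0.352 in U87 with PBS. HLA-DMA over HLA-DMB was 2.59, 2.94 and 2.50 with BCT-100, against 1.91, 2.10 and 2.002 with PBS. The treated libraries thus held less HLA-DM transcript per HLA-DRA transcript, and within HLA-DM less of the beta chain.

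**Figure D3:**
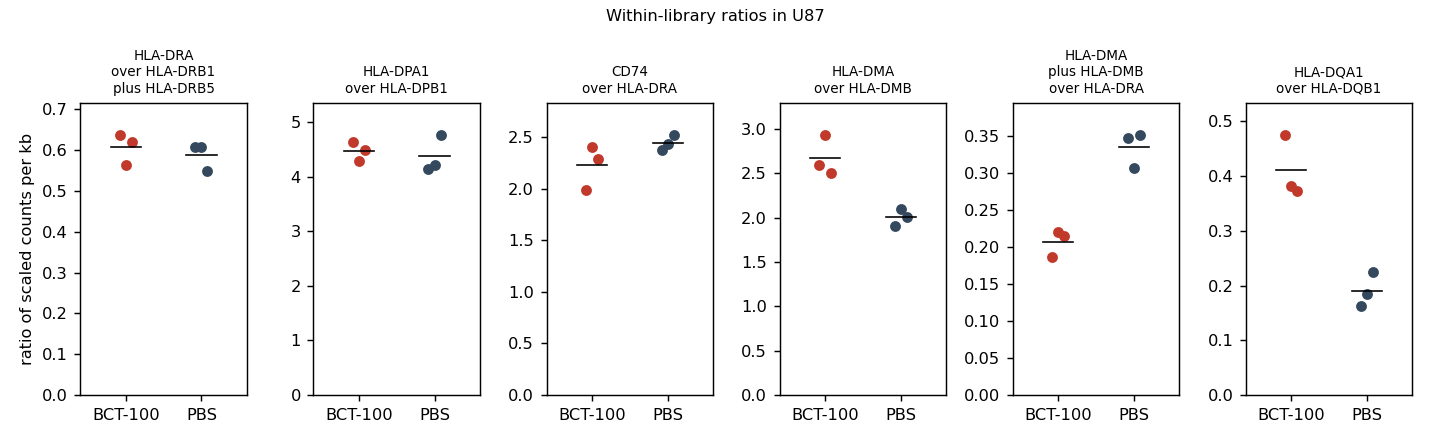
Ratios of scaled counts per kilobase between genes of the same library (vertical axes, each from 0) in the 3 BCT-100 and 3 PBS libraries of U87; points are libraries and black lines are means. The first 3 ratios overlap between treatments, while HLA-DMA over HLA-DMB, HLA-DM over HLA-DRA and HLA-DQA1 over HLA-DQB1 do not.

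Other class II genes are outside the 9 and were tested, though their list was also chosen with earlier results of these data known. HLA-DQA1, HLA-DQB1 and HLA-DOA passed the filter on low values only through U87. Of 8 listed, 6 were in the table and 4 passed that filter. In U87 1 of the 4 was called higher and none was called lower, with a median log2 difference of 0.22. Of all genes tested, 33.6% were called higher and 35.7% lower in U87. HLA-DQB1, the DQ beta chain, was at 425, 432 and 423 in U87 with BCT-100, against 600.5, 657 and 615 in U87 with PBS. HLA-DQA1, the DQ alpha chain, was at 185.4, 152 and 145 in U87 with BCT-100, against 90.0, 111 and 127 in U87 with PBS. The treated DQB1 libraries all lay below the PBS libraries, as in the 9 genes, and the treated DQA1 libraries all lay above them. In the 12-library limma fit neither passed: the log2 difference was -0.55 for HLA-DQB1 (SE 0.26, adjusted p = 0.0684) and 0.56 for HLA-DQA1 (SE 0.34, adjusted p = 0.154). In the limma fit of U87 libraries alone both passed, with adjusted p = 8.54e-08 for HLA-DQB1 and 0.00159 for HLA-DQA1. HLA-DQA1 over HLA-DQB1, per kilobase, was 0.476, 0.382 and 0.373 with BCT-100, against 0.163, 0.184 and 0.224 with PBS. Both DQ genes were at 0 in all 6 U373 libraries.

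HLA-DOA and HLA-DOB encode HLA-DO, a brake on HLA-DM that is best known from B cells. HLA-DOA was at 18.6, 21.6 and 17.4 in U87 with BCT-100, against 19.6, 20.01 and 23.4 in U87 with PBS, and the groups overlapped. HLA-DOB was at 27.5, 11.7 and 7.98 in U87 with BCT-100, against 2.86, 2.73 and 3.19 in U87 with PBS. In U373 it was at 18.9, 33.9 and 49.5 with BCT-100, against 3.68, 2.54 and 1.10 with PBS. HLA-DOB was the class II gene that rose in both lines, by a log2 difference of 1.92 in U87 (SE 0.49, limma adjusted p = 0.00162) and 3.32 in U373 (SE 0.49, adjusted p = 3.92e-06). Its values are low, scatter widely and are not whole reads, so reads were shared with another annotated transcript, and its neighbour TAP2 also rose in both lines.

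Genes that neighbour the class II genes on chromosome 6 moved in both directions in U87. Of 11 listed non-class II genes of the region, 10 were tested, of which 5 rose, 2 fell and 3 were not called, with a median log2 difference of 0.22. Among all genes tested, 33.6% rose and 35.7% fell in U87. TAP2, a subunit of the class I peptide transporter, was at 1614, 1739 and 1646 in U87 with BCT-100, against 1025, 975 and 990.1 in U87 with PBS (log2 difference 0.74, limma adjusted p = 1.70e-11). PSMB9, an immunoproteasome subunit, fell by 0.57 on the log2 scale in U87 (adjusted p = 0.000104), and SLC39A7, a zinc transporter of the endoplasmic reticulum, fell by 0.47 (adjusted p = 1.19e-10). BRD2, a bromodomain protein gene between HLA-DMA and HLA-DOA, was not called in U87 (0.06, adjusted p = 0.153) except without PBS replicate 3 (0.10). The genes with lower values among the class II set thus lay among neighbours that were higher, lower or not called.

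**Figure D4:**
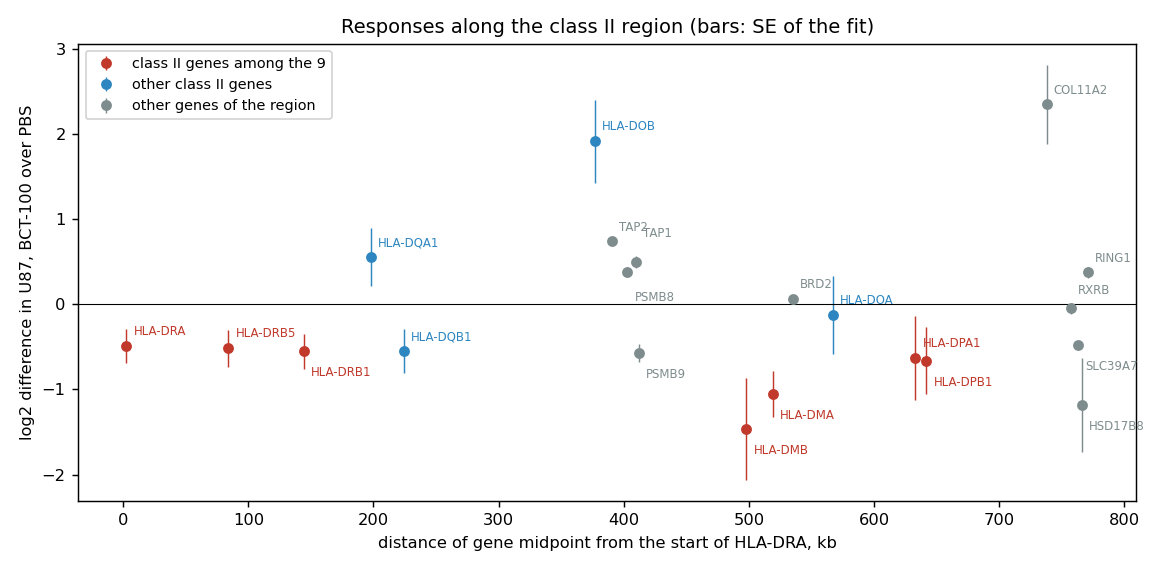
Log2 difference in U87, BCT-100 over PBS (vertical axis, bars are the SE of the 12-library fit), against the distance of each gene's midpoint from the start of HLA-DRA in kilobases (horizontal axis). The 7 HLA genes of the set, in red, lie below 0, from -0.49 for HLA-DRA to -1.46 for HLA-DMB, between genes on both sides of 0.

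Around CIITA on chromosome 16, 6 neighbours were tested in U87, of which 2 rose, 1 fell and 3 were not called. The shares of all genes that rose and fell in U87 were 33.6% and 35.7%. DEXI lies on the opposite strand inside the annotated span of CIITA, at its far end, so reads of both genes cannot be told apart there unless strand was used. DEXI was at 269, 264 and 269.6 in U87 with BCT-100, against 162, 184.7 and 179 in U87 with PBS. The groups did not overlap, and DEXI rose by a log2 difference of 0.61 (SE 0.10, limma adjusted p = 1.40e-05). In U373, where CIITA had at most 4 reads, DEXI was at 282, 268 and 258 with BCT-100, against 290.1, 331 and 264 with PBS. SOCS1, an inhibitor of JAK signalling, rose by 1.48 in U87 (adjusted p = 0.0123), and CLEC16A fell by 0.20 (adjusted p = 0.000969). Around CD74 on chromosome 5, 3 of 5 neighbours fell in U87 and 2 were not called. RPS14, a ribosomal protein gene, fell by 0.41 (adjusted p = 2.84e-08), NDST1, a heparan sulfate enzyme, by 0.20 (adjusted p = 1.24e-05), and ARSI, a sulfatase, by 1.21 (adjusted p = 0.00164).

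The factors that CIITA docks on and works with were mostly higher or not called in U87. Of 13 genes for the RFX, CREB and NF-Y proteins and the coactivators, 8 rose, 2 fell and 3 were not called in U87, with a median log2 difference of 0.28, while 6 rose, 3 fell and 4 were not called in U373, with a median of 0.13. Over all genes 33.6% rose and 35.7% fell in U87, and 35.6% rose and 35.8% fell in U373. RFX5, the DNA-binding RFX subunit, was at 1981, 2208 and 1947 in U87 with BCT-100, against 2188, 2180.4 and 2229 in U87 with PBS, and was not called (log2 difference -0.11, limma adjusted p = 0.0705). RFX5 was called lower in U87 alone, under equal totals and under voom (-0.16 in both), and without BCT-100 replicate 2 (-0.16). CREB1 was at 1353, 1408 and 1411 in U87 with BCT-100, against 756, 841 and 748 in U87 with PBS, and rose by 0.83 (adjusted p = 2.43e-11).

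The 2 genes of that list that fell in U87 are both coactivators. KAT2B, the acetyltransferase PCAF, was at 436, 377 and 416 in U87 with BCT-100, against 1369, 1346 and 1442 in U87 with PBS, a log2 difference of -1.76 (SE 0.07, limma adjusted p = 4.57e-15). SMARCA4, the BRG1 remodelling ATPase, was at 2409, 2412 and 2272 in U87 with BCT-100, against 4610.2, 4754 and 4587 in U87 with PBS, a log2 difference of -0.98 (SE 0.04, adjusted p = 2.01e-15). Both also fell in U373, KAT2B by 1.58 (adjusted p = 2.16e-14) and SMARCA4 by 0.47 (adjusted p = 2.62e-10). The test of the difference between the lines called SMARCA4 (-0.51, adjusted p = 3.42e-08) and not KAT2B (-0.17, adjusted p = 0.124).

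Listed genes of the interferon-gamma route to CIITA, inhibitors of the route among them, were mostly called higher in both lines. Of 12 listed genes 11 were tested; 9 rose, 1 fell and 1 was not called in U87, and 7 rose, 2 fell and 2 were not called in U373. The median log2 difference was 0.56 in each line. Over all genes 33.6% rose in U87 and 35.6% in U373. IFNG itself was at 0 in all 12 libraries. IRF1, a transcription factor that binds the interferon-responsive CIITA promoter, was at 3775, 3859 and 3831 in U87 with BCT-100, against 541, 575 and 637 in U87 with PBS. In U373 IRF1 was at 2077, 2112 and 2179 with BCT-100, against 622, 582 and 547 with PBS. It rose by 2.71 in U87 (SE 0.06, limma adjusted p = 1.99e-19) and by 1.86 in U373 (adjusted p = 8.30e-17).

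Other steps of that route moved in both directions. JAK1, the receptor kinase, was at 9728, 10059 and 10144 in U87 with BCT-100, against 6381, 6364 and 6462 in U87 with PBS, with no overlap. It rose by 0.64 in U87 (adjusted p = 1.62e-14) and by 0.56 in U373 (adjusted p = 1.37e-13). The negative regulators SOCS3 and PTPN2 rose too, SOCS3 by 0.95 in U87 (adjusted p = 4.07e-11) and 1.54 in U373 (adjusted p = 1.60e-14), and PTPN2 by 0.75 in U87 (adjusted p = 4.45e-10) and 0.91 in U373 (adjusted p = 1.56e-11). USF1, which binds the same CIITA promoter, fell by 0.19 in U87 (adjusted p = 0.0237) and by 0.39 in U373 (adjusted p = 7.23e-05), and its call in U87 was lost without PBS replicate 2 (-0.14), PBS replicate 3 or BCT-100 replicate 3 (-0.16 each).

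Of 6 other regulators reported at CIITA, 2 were tested. PRDM1, the repressor Blimp-1, was at 449.6, 436 and 412 in U87 with BCT-100, against 259, 249 and 266 in U87 with PBS, and rose by 0.74 (SE 0.07, limma adjusted p = 2.30e-08). In U373 it was not called (-0.03, adjusted p = 0.70), and the difference between the lines was 0.78 (adjusted p = 3.09e-06). EZH2, a histone methyltransferase, fell by 0.25 in U87 (adjusted p = 0.000236) and by 0.79 in U373 (adjusted p = 2.47e-11).

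Genes that process antigen for class II moved in both directions. Of 13 tested, 4 rose, 7 fell and 2 were not called in U87, with a median log2 difference of -0.20. In U373 3 rose, 6 fell and 4 were not called, with a median of -0.08. The shares of all genes that rose and fell were 33.6% and 35.7% in U87, and 35.6% and 35.8% in U373. CTSS, cathepsin S, which makes the last cuts in CD74, was at 3448.5, 3498 and 3666 in U87 with BCT-100, against 1695, 1807 and 1951 in U87 with PBS. In U373 CTSS was at 173, 179 and 210.3 with BCT-100, against 217, 197 and 217 with PBS. It rose by 0.96 in U87 (SE 0.07, limma adjusted p = 2.76e-10), and the difference between the lines was 1.13 (adjusted p = 1.15e-08).

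Other members of that list that rose in U87 were SPPL2A, the protease that clears the remaining CD74 stub (0.39, limma adjusted p = 6.47e-06), CTSD, cathepsin D (0.48, adjusted p = 1.69e-12), and IFI30, the lysosomal thiol reductase GILT (0.28, adjusted p = 0.000424). CTSL and CTSB, cathepsins L and B, fell by 0.14 (adjusted p = 0.00432) and 0.13 (adjusted p = 0.000249), and CD63, a tetraspanin of late endosomes, by 0.20 (adjusted p = 8.55e-06). In PBS, IFI30 and CTSS were higher in U87 than in U373 by log2 differences of 3.97 (adjusted p = 6.06e-22) and 3.10 (adjusted p = 6.16e-19). IFI30 and CTSS were thus higher in U87, like the class II set, but rose there under BCT-100. They were not silent in U373, with means of 152 and 210 in PBS. CTSL, CTSB and CD63 were also higher in U87 in PBS (log2 differences of 1.07, 0.82 and 1.33) and fell in U87 under BCT-100. SPPL2A and CTSD were lower in U87 in PBS (-1.08 and -0.09).

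CD74 is also a surface receptor for MIF and its relative DDT, with CD44, CXCR4, CXCR2 and ACKR3 as partners. CD44 fell by 0.28 in U87 (limma adjusted p = 4.39e-08) and by 0.96 in U373 (adjusted p = 1.02e-16), whereas DDT rose by 0.20 in U87 (adjusted p = 0.0122) and fell by 0.39 in U373 (adjusted p = 2.43e-05). The DDT call in U87 was lost without BCT-100 replicate 2 (0.17). CXCR4 was at 0 in all U87 libraries, and in U373 it was at 2.12, 4.98 and 4.65 with BCT-100, against 18.4, 18.7 and 22.7 with PBS. ACKR3 was at 526, 531 and 481 in U373 with BCT-100, against 52.5, 29.3 and 50.004 in U373 with PBS, and at or below 2.73 in U87.

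Class I genes rose in U87, where the 9 genes were lower. NLRC5, the class I counterpart of CIITA, fell by 1.11 in U87 (limma adjusted p = 1.10e-11) and by 0.64 in U373 (adjusted p = 5.23e-08), while all 6 listed class I genes rose in U87. HLA-B was at 10621, 10570.0 and 10646 in U87 with BCT-100, against 3946, 3994 and 3790.0 in U87 with PBS, a log2 difference of 1.44 (SE 0.03, adjusted p = 2.32e-18). HLA-E rose by 1.14 (adjusted p = 1.13e-16). B2M, the shared light chain, rose by 0.52 in U87 (adjusted p = 1.49e-12) and fell by 0.51 in U373 (adjusted p = 1.80e-12), with a difference between the lines of 1.04 (adjusted p = 3.38e-14). In U373 4 of the 7 genes of this list rose and 2 fell. Of all genes tested, 33.6% rose and 35.7% fell in U87, and 35.6% rose and 35.8% fell in U373.

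**Figure D5:**
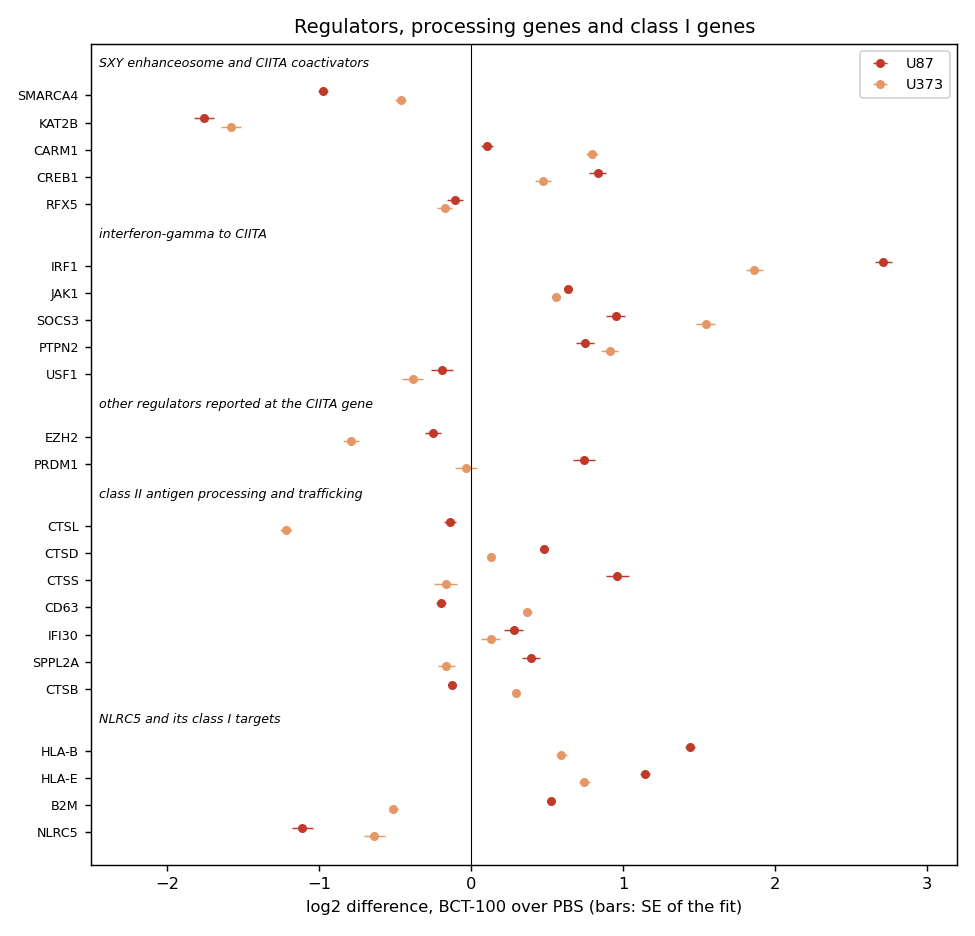
Log2 difference, BCT-100 over PBS (horizontal axis, bars are the SE of the 12-library limma fit), for named genes of 5 lists (rows), with U87 in red above U373 in orange. IRF1 lies at 2.71 in U87 and 1.86 in U373, KAT2B at -1.76 and -1.58, and B2M lies at 0.52 in U87 and -0.51 in U373.

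Part of the marker list of leukocytes, microglia and antigen-presenting cells moved with the class II genes. Of 16 markers, 4 passed the filter on low values, and in U87 CD68 and CSF1R fell while ITGAX and CD14 were not called. The sum over the 16 markers ranged from 2728 to 2938 in U87 with BCT-100, against 6512 to 6746 in U87 with PBS, and from 215 to 243 in U373 with BCT-100, against 445 to 499 in U373 with PBS. CD68, a lysosomal glycoprotein of macrophages that many other cells make, accounted for most of the sum, at 2417, 2548 and 2395 in U87 with BCT-100, against 5974, 6094 and 6029 in U87 with PBS. CSF1R, the macrophage colony-stimulating factor receptor, was at 79.8, 112 and 93.5 in U87 with BCT-100, against 248, 298 and 272 in U87 with PBS, a log2 difference of -1.52 (limma adjusted p = 0.00454). ITGAX, an integrin of myeloid cells, was at 208, 253 and 236 in U87 with BCT-100, against 269, 332 and 281 in U87 with PBS (-0.34, adjusted p = 0.434). In U373, CSF1R lay at or below 11.97 and ITGAX at or below 1.86, so CSF1R and ITGAX shared with the class II genes the higher level in U87. CD14 went the other way, with means of 6.44 in U87 and 19.8 in U373 in PBS. In BCT-100 its means were 9.72 in U87 and 70.2 in U373. PTPRC, which marks all leukocytes, was at 0 in the 3 treated U87 libraries and at 0.978 to 2.73 in the PBS ones. The endothelial and epithelial list summed to 25.9 to 36.1 in U87 with BCT-100, against 65.9 to 79.2 in U87 with PBS. The part of these markers in the class II differences was not tested.

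The difference between the lines in their response was tested for all genes, and 56.8% of 13628 were called, 30.7% with the lower response in U87. Of the 9 genes, CIITA and CD74 were called lower, again as a description of genes chosen from these values, with log2 differences (U87 minus U373) of -1.40 (SE 0.49) and -0.63 (SE 0.25). For CD74 and the DR chains this difference equals that in U87, since U373 was at 0 throughout, and for CIITA it rests on the few U373 reads given above. A gene without reads in U373 could not have shown a decrease there.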

How the data were processed

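RNA-seq libraries were aligned and quantified with STAR and RSEM on hg38, per the submitters' processing notes; further steps are not given in the sources used here. The deposited table holds a signal per gene, the authors' scaled expected counts: undoing 1 factor per library left 85.5% to 86.9% of values whole within 0.001. Of 19844 rows, 20 repeats were dropped. The main test was limma 3.58.1 (R 4.3.3, trend and robust) on log2(value + 1) over 12 libraries with 4 group means and 8 residual degrees of freedom, two-sided, for genes at 10 or more in at least 3 libraries, Benjamini-Hochberg adjusted over 13628 genes at 0.05. Fold changes on this scale understate those of low genes. Depth was 18886000 to 25924000 recovered reads.

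The 9 genes and all lists were chosen with earlier results of these data known. In each list the text names up to 4 genes with the smallest p for BCT-100 over PBS, in U87 or in U373. Called genes against the others' direction in these comparisons are named too. RefSeq promoters were matched by symbol. Checks used simulated data. The alternatives were pseudocounts 0.5 and 4, other filters, rescalings, voom, fits of single comparisons, a replicate block, single libraries left out and HLA-DRB1 summed with HLA-DRB5. Replicate pairs differed by more than sampling noise (chi-square per gene 2.30 to 3.78). HLA-DRB3, HLA-DRB4, MARCH1 and MARCH8 were not analysed here, and a few items that the lists hold are counted but not reported by name.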

Additional observations from a re-analysis of the deposited data

Results flagged for a closer look

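The BCT-100 response differed between the lines, by the limma test of the difference itself, for 30 named genes outside the class II set, where 56.8% of all genes tested did. The values that follow are the log2 response in U87 minus that in U373. Among factors that work with CIITA the difference was -0.51 for SMARCA4, -0.69 for CARM1 and 0.36 for CREB1. CARM1 was at 1928, 1958 and 2085 in U87 with BCT-100, against 1896, 1899 and 1772 in U87 with PBS, and at 3447, 3605 and 3480.5 in U373 with BCT-100, against 2045, 2003 and 2025 in U373 with PBS.

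On the interferon-gamma route and among other CIITA regulators the difference was 0.85 for IRF1, -0.59 for SOCS3, 0.54 for EZH2 and 0.78 for PRDM1. Among antigen-processing genes it was 1.08 for CTSL, 0.35 for CTSD, 1.13 for CTSS, -0.57 for CD63, 0.56 for SPPL2A and -0.42 for CTSB. Among CD74 ligands and partners it was 0.68 for CD44, 0.59 for DDT, -3.55 for ACKR3 and 2.14 for CXCR4. In U87 ACKR3 was at or near 0 and CXCR4 at 0, so their differences rest on U373. The CXCR4 call was lost at pseudocount 0.5 (2.28) and without U373 BCT-100 replicate 1 (1.84), and without any 1 U373 PBS library CXCR4 no longer passed the filter on low values.

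Among neighbours on the chromosomes the difference was 0.21 for SLC39A7, -0.39 for BRD2, 0.39 for PSMB9, 0.74 for DEXI, -0.47 for CLEC16A, 0.50 for RMI2, -1.09 for NDST1, -0.94 for TCOF1 and -1.55 for ARSI. ARSI had a single read in U373, so its difference rests on U87, and its call was lost under voom (-1.78). NDST1 was at 4321, 4369.9 and 4438 in U87 with BCT-100, against 4995, 5065 and 4996 in U87 with PBS, and at 4701, 4967 and 4982 in U373 with BCT-100, against 2689, 2656 and 2564 in U373 with PBS. Among class I genes it was 0.85 for HLA-B, 0.40 for HLA-E, 1.04 for B2M and -0.47 for NLRC5. The call was lost for PSMB9 under equal totals (0.37), voom (0.37) and most single libraries left out, and for RMI2 under voom (0.48) and without U87 PBS replicate 1 (0.47), U87 PBS replicate 3 (0.44) or U87 BCT-100 replicate 2 (0.48).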

How the results depend on the processing

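Under every alternative run the 9 genes stayed lower in U87 with BCT-100 and their median log2 difference, -0.63 as reported, lay between -0.67 (voom) and -0.58. It was -0.63 with HLA-DRB1 and HLA-DRB5 summed. Equal totals and voom moved 3 genes beyond the replicate spread: CIITA to -0.48 in both, HLA-DRB1 to -0.60 and HLA-DPA1 to -0.68. The called pathway genes outside the 9 were 55 of 75 in U87 (53 to 61 over the alternatives) and 53 in U373 (48 to 54). They were 45 for the difference between the lines (42 to 46), 66 for U87 over U373 in PBS (61 to 66) and 68 in BCT-100 (63 to 69). Over all 13628 genes tested, 69.3% were called in U87, 71.4% in U373 and 56.8% for the difference between the lines. For U87 over U373, 11325 of all genes were called in PBS and 11493 in BCT-100. HLA-DQB1 and HLA-DQA1 passed in U87 at pseudocount 4, under voom and in U87 alone, and HLA-DQB1 also under equal totals and with most single U373 libraries left out.

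Directions turned for uncalled genes only. RMI2 in U87, 0.05 as reported, was -0.0029 under equal totals and -0.0032 under voom, and ranged from -0.0118 to 0.13 with single libraries left out. With single libraries left out TCOF1 in U87 ranged from -0.0589 to 0.0064, PRDM1 in U373 from -0.10 to 0.0288 and SOCS1 in U373 from -0.65 to 0.63. CTSS in U373, -0.17 as reported, lost its call in most of these fits, and CARM1 in U87 lost its call under equal totals (0.05), under voom, in the block fit and without PBS replicate 3 or BCT-100 replicate 3 (0.07 each). Rescaling moved the median of all genes by at most 0.0469.

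Same-numbered BCT-100 and PBS libraries did not deviate together (correlation -0.07 to 0.023), so they share only a number. With a replicate block within line, 55 pathway genes were called in U87, 53 in U373 and 44 for the difference between the lines. Over all genes these numbers were 9408, 9671 and 7650. With a block shared by all groups, chosen after seeing the data, 66 pathway genes were called in PBS and 68 in BCT-100. Over all genes 11339 and 11495 were. In U373 the depth limits CIITA and HLA-DPB1 to a handful of reads.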

Other observations

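Over the 12 libraries, the genes outside the lists whose log2 values followed HLA-DRA most closely were CTTNBP2, FOXD1, GREM1, PTCHD4, XYLT1 and GALNT9, each with a Pearson correlation of at least 0.9999. All 6 were at 0 in U373, and the split between the lines sets these correlations. GREM1, a secreted BMP antagonist, averaged 9066 in U87 with BCT-100, against 12469 in U87 with PBS. For CIITA they were CARD10, MFAP4, CAPG, TMEM233, TNS1 and SPRY2, with correlations from 0.9959 to 0.998.

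MIF, the main soluble ligand of CD74, was singled out after its values were seen. It was at 3256, 3289 and 3104 in U87 with BCT-100, against 2551, 2522 and 2258 in U87 with PBS. In U373 it was at 3.18, 3.98 and 11.2 with BCT-100, against 3.68, 3.51 and 2.73 with PBS. The ligand and its receptor CD74 were thus both abundant in U87 and at or near 0 in U373, and under BCT-100 the treated U87 libraries were above the PBS ones for MIF and below them for CD74.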
